A study of Mus musculus and Homo sapiens with 40 samples.

Results

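The 3657 regions described here carried H3K27ac peaks in untreated p42-expressing cells, in LPS-treated p42-expressing cells and in LPS-treated p30-expressing cells, but not in untreated p30-expressing cells. They were chosen by the H3K27ac peak lists themselves, out of 183190 regions made by merging the 4 lists on chromosomes 1 to 19, X and Y, where peaks that share at least 1 bp form 1 region. The p30-expressing cells thus had a peak at these regions only with LPS, whereas the p42-expressing cells had one in both states. Of the 63050 merged regions absent from untreated p30-expressing cells, 34964 (55.5%) appeared with LPS, and the members made up 10.5% of these. They were 46.6% of the 7842 regions that both p42 lists held and untreated p30-expressing cells lacked.

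The series measured 40 ChIP-seq samples, and the libraries used here came from HPC-7, a mouse hematopoietic progenitor line that was transduced by retrovirus with CEBPA p42-ERT2 or CEBPA p30-ERT2 and sorted for the GFP of the vector. Each isoform was studied in 1 such line, so isoform and cell line cannot be told apart, and every line carried the ERT2 fusion, which hydroxytamoxifen brings into the nucleus according to the methods of the study. H3K27ac was profiled in 3 samples per group, either untreated or after 2 h of LPS at 100 ng/mL. H3K4me1 was profiled in 2 samples per untreated line, and CEBPA in 1 sample per line with an antibody to CEBPA and in 1 with an antibody to the ER part of the fusion. The promoters of all 12 progenitor genes examined, among them Kit, Gata2 and Tal1, carried H3K27ac in all 4 lists, as did those of the 5 macrophage genes, while those of the B cell genes Pax5, Ebf1 and Ms4a1 were in no list. Of 5 promoters each, 1 or 2 were marked for T cell, 2 or 3 for erythroid, 3 for megakaryocyte and 2 for mast cell genes, depending on the list. Among all 21738 protein-coding genes, 10989 to 11319 had a marked promoter, again depending on the list.

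CEBPA is a basic leucine zipper factor that drives myeloid differentiation. Its p42 isoform is full length, and p30, which is translated from an internal start site and accumulates in acute myeloid leukemia, lacks the N-terminal transactivation domains but keeps the DNA-binding domain. H3K27ac marks active enhancers and promoters, and H3K4me1 marks enhancers whether active or poised. LPS acts through TLR4 and CD14 and brings NF-kB and AP-1 to the enhancers of inflammatory genes, often beside lineage factors such as CEBPA and PU.1 that already occupy them.

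Each list was called once, on pooled samples or on a single library, which leaves differences between lists without replicates, and no test between lists was run. Ranges in brackets after a share are Wilson 95% intervals, which cover counting error over regions only. The study states a range of read depth for its samples, but the depth behind each list is unknown. Values called fold are the enrichment over local background at the peak summit as computed by the authors, and ranks order the peaks of a list from the smallest q-value. Shares are set beside all merged regions, beside the 56651 regions present in all 4 lists, and beside the 3863 regions with the mirror pattern, which were absent only from untreated p42-expressing cells and so were gained with LPS in p42.

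The sequences below come from well-ranked members that were picked because they hold a motif match. They do not stand for the strongest members in general. Each is 120 bp of the GRCm39 (mm39) forward strand, centered on a motif match in capitals, which may read on either strand, and is named by the nearest protein-coding gene. The first set are the 3 best-ranked eligible members that were bound in both lines by the anti-CEBPA antibody and held a CEBP motif (TTGCNNAA) within 50 bp of the p42 summit.
Lpp (CEBP, chr16:24018713-24018832): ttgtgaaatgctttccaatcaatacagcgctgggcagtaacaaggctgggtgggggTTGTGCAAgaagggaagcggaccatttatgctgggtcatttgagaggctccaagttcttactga
Tpp2 (CEBP, chr1:43956182-43956301): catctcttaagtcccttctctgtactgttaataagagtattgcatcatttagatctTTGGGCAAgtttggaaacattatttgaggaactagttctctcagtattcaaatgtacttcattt
St3gal1 (CEBP, chr15:67353810-67353929): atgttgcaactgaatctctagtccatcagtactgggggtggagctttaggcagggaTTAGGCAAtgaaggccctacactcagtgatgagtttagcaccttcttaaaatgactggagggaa

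The second set are the 3 best-ranked members outside promoters with an NF-kB motif within 150 bp of the strongest H3K27ac summit. The Il12b sequence lies in a region 9603 bp upstream of the gene, which encodes the p40 subunit of IL-12 and IL-23. The Papss2 and Lzts3 regions are intronic and close behind the start sites.
Papss2 (NF-kB, chr19:32573497-32573616): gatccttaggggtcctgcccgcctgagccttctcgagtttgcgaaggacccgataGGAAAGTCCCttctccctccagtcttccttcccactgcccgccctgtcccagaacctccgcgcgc
Il12b (NF-kB, chr11:44281022-44281141): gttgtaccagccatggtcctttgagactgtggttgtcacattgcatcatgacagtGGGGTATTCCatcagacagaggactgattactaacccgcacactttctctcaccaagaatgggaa
Lzts3 (NF-kB, chr2:130484556-130484675): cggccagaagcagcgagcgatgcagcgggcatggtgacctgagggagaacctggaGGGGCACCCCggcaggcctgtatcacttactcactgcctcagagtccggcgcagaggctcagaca

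The third set are the 2 best-ranked members outside promoters with an AP-1 motif (TGANTCA) within 150 bp of that summit. The Tpp2 region appears in both the first and the third set, so its AP-1 and CEBP matches lie within 1 member.
Ppp2r1a (AP-1, chr17:21160283-21160402): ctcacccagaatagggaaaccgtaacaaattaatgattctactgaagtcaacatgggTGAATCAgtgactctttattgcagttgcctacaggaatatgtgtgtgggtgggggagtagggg
Tpp2 (AP-1, chr1:43956120-43956239): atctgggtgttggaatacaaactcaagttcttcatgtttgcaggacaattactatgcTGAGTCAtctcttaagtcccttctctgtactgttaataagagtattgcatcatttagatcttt

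The members were weak to moderate peaks. Their median fold was 3.14 in untreated p42-expressing cells, 3.23 in p42-expressing cells with LPS and 2.83 in p30-expressing cells with LPS. The corresponding median rank percentiles were 57.5, 61.7 and 62.2, against 24.4, 31.0 and 22.1 for regions in all 4 lists. Only 3, 2 and 0 members were among the best 10% of the 3 lists, and 717 (19.6%) had q under 1e-05 in each of them. At the edge of the rule, 129, 61 and 119 members had a −log10 q under 2, with lowest values of 1.31, 1.31 and 1.32, and 326 regions in all 4 lists had a value under 2 in untreated p30-expressing cells, which kept them out. These values are those that chose the members and are given as a description. Membership moved with list length, since with the best 107141 peaks of each list 58.5% of the members overlapped a region that fitted the rule.

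**Figure D1:**
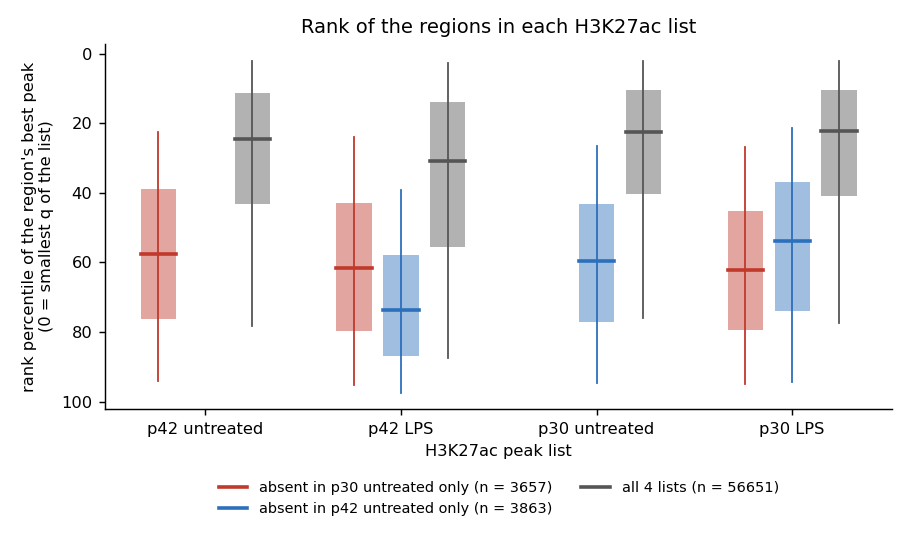
Rank percentile of the best peak of each region in the 4 H3K27ac lists (y axis, 0 is the smallest q-value of the list), for the members (absent in p30 untreated only), the mirror pattern (absent in p42 untreated only) and regions in all 4 lists. Lines span the 5th to 95th percentile of regions, boxes the 25th to 75th percentile, and bars the median; the members have medians of 57.5 to 62.2 and no value in untreated p30-expressing cells.

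Among the members, the fold in untreated and in LPS-treated p42-expressing cells followed each other loosely (Spearman's rho 0.44 over 3657 regions), and the fold in p30-expressing cells with LPS did so less (0.19 with untreated and 0.29 with LPS-treated p42-expressing cells). These are descriptions across regions, which share the lists and the cells. The best rank percentile came from untreated p42-expressing cells in 1498 members (41.0%), from LPS-treated p42-expressing cells in 957 (26.2%) and from LPS-treated p30-expressing cells in 1202 (32.9%). The members were narrow, with a median width of 530 bp against 1464 bp for regions in all 4 lists, and 3266 (89.3%) held a single peak of each list.

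The missing peak in untreated p30-expressing cells was often close by. A p30 untreated peak lay within 1000 bp of 2062 members (56.4%, 54.8 to 58.0) and within 5000 bp of 3059 (83.6%), and the median gap was 771 bp. The mirror regions had a like share within 1000 bp of the peak they lacked, 55.3%. For 1434 members (39.2%) the nearest other region was one present in all 4 lists. Most members therefore flanked chromatin that was already acetylated in untreated p30-expressing cells, and 1595 stood apart from it by over 1000 bp, the longest gap being 1026356 bp.

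The named members with the best median rank show the range of patterns. Spatc1, which encodes a sperm centriole protein, had an intronic member at chr15:76152882-76155824 with a fold of 28.1 untreated and 28.6 with LPS in p42-expressing cells but 3.43 with LPS in p30-expressing cells. A member 13574 bp downstream of the start of Cd14, the LPS co-receptor, on chromosome 18, had folds of 13.3, 14.5 and 3.90 in the same order. An intergenic member 193782 bp upstream of Lpp, a LIM-domain protein of focal adhesions, at chr16:24017446-24022167 had 19.4, 16.9 and 2.60. At these 3 regions the p30-expressing cells gained a peak with LPS that was weak beside the one in p42-expressing cells.

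Sod2, the mitochondrial superoxide dismutase and a known NF-kB target, showed another pattern. Its member at chr17:13229063-13230450, anchored in a coding exon 2894 bp behind the start, had a fold of 3.22 in untreated p42-expressing cells, 12.3 with LPS, and 10.7 with LPS in p30-expressing cells, and the nearest p30 untreated peak was 787 bp away. The Il12b member at chr11:44281010-44282035 had folds of 3.77, 14.3 and 6.61, and that of Tpp2, a cytosolic peptidase, at chr1:43955682-43957138 had 2.92, 9.70 and 8.39. These members were strong with LPS in both lines and weak, but called, in untreated p42-expressing cells. The member behind the start of Papss2, which makes the sulfate donor PAPS, at chr19:32572101-32574825 had folds of 12.7, 13.5 and 4.02 and no CEBPA site in any list.

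At promoters the best-ranked members were those of Lrrc8c, a subunit of volume-regulated anion channels, with folds of 11.1, 14.9 and 4.25, and of Pctp, the phosphatidylcholine transfer protein, with 7.55, 6.15 and 8.74. The promoter of Dnmt3l, a cofactor of de novo DNA methylation, had 6.32, 9.99 and 4.96, with the nearest p30 untreated peak 22850 bp away. That of Xylt1, which starts proteoglycan chains, had 10.8, 7.68 and 5.67. The Lrrc8c and Pctp members lay within 218 and 214 bp of a p30 untreated peak, so at these genes a marked segment stood next to the member in untreated p30-expressing cells.

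H3K4me1, which the choice of members did not use, covered a minority of the members. In untreated p42-expressing cells 1596 members (43.6%, 42 to 45.3) overlapped an H3K4me1 peak, beside 36.4% of all merged regions. In untreated p30-expressing cells 1535 members (42%, 40.4 to 43.6) did, beside 42.8% of all. The H3K4me1 list of p30-expressing cells was the longer one, and with the same number of best peaks from each line, 43.6% and 36.2% of the members overlapped one. The mirror regions leaned the other way, with 39.0% and 51.3% as deposited and 39.0% and 45.9% with equal numbers. The difference between members and mirror regions was 4.61 percentage points (2.38 to 6.83, Newcombe 95% interval) in p42-expressing cells and -9.36 points (-11.6 to -7.11) in p30-expressing cells. Members thus had H3K4me1 more often than the mirror regions in p42-expressing cells and less often in p30-expressing cells, in each case more often in the line where the region was acetylated before LPS.

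In 1209 members (33.1%) H3K4me1 was called in both lines, in 387 (10.6%) only in p42- and in 326 (8.91%) only in p30-expressing cells, and in 1735 (47.4%) in neither. Over all merged regions these shares were 31.0%, 5.45%, 11.8% and 51.7% in the same order. The members thus stood apart mainly in H3K4me1 called in 1 line, which was more often p42 and less often p30 than over all regions. Regions in all 4 H3K27ac lists overlapped H3K4me1 more often, 64.1% in p42- and 68.7% in p30-expressing cells. They were also wider, and within a fixed window of 500 bp at the strongest summit the shares came to 46.1% and 52.2%, against 41.6% and 39.9% of the members.

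CEBPA sites were more frequent in the members than in the merged regions at large, with both antibodies and in both lines. The anti-CEBPA antibody had a site in 463 members (12.7%, 11.6 to 13.8) in p42-expressing cells, beside 6.74% of all merged regions, and in 301 members (8.23%, 7.38 to 9.17) in p30-expressing cells, beside 5.41%. The anti-ER antibody had one in 415 (11.3%, 10.4 to 12.4) in p42-expressing cells, beside 6.54%, and in 467 (12.8%, 11.7 to 13.9) in p30-expressing cells, beside 8.86%. At least 1 of the 4 lists had a site in 623 members (17.0%), beside 10.8% of all, and all 4 lists had one in 224 (6.13%), beside 3.66%. Most members, 3034, had no site in any list.

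The mirror regions, gained with LPS in p42-expressing cells, had far fewer CEBPA sites. The anti-CEBPA share was 2.05% in p42- and 1.45% in p30-expressing cells, and the anti-ER share was 1.37% and 3.62%. For the anti-CEBPA antibody the members exceeded them by 10.6 points (9.46 to 11.8) in p42-expressing cells and by 6.78 points (5.83 to 7.77) in p30-expressing cells. The differences by anti-ER were 9.98 points (8.90 to 11.1) and 9.15 points (7.92 to 10.4). Members and mirror regions had like widths, 530 and 576 bp, and within the fixed window of 500 bp the p42 anti-CEBPA shares were 11.8% and 1.81%. In the H3K27ac lists that held both classes, the mirror regions were weaker in LPS-treated p42-expressing cells (median rank percentile 73.8, against 61.7 for the members) and stronger in LPS-treated p30-expressing cells (53.9 against 62.2). With q under 1e-05 in the 3 lists that held a region the same shares were 24.0% and 2.45%. The members were thus CEBPA-bound far more often than the regions with the opposite pattern, in the p30-expressing cells as well.

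Regions that both p42 lists held and neither p30 list did, 4185 in number, had still more sites. The anti-CEBPA share there was 22.1% in p42-expressing cells, and the members were 9.42 points below it (7.76 to 11.1 points below). In p30-expressing cells it was 10.7%, and the members were 2.45 points below (1.15 to 3.74). Regions absent only from LPS-treated p30-expressing cells had 9.07% and 5.02%, and the members exceeded them by 3.59 points (2.11 to 5.05) and 3.21 points (2.04 to 4.38). Regions absent only from LPS-treated p42-expressing cells had 1.64% and 1.38%. The classes missing from 1 p30 list thus had more CEBPA sites than those missing from 1 p42 list, and the members more than the others of these 4. Regions in all 4 lists had 15.5% and 13.6%, and within the fixed window 9.45% and 8.35%, against 11.8% and 7.71% of the members.

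**Figure D2:**
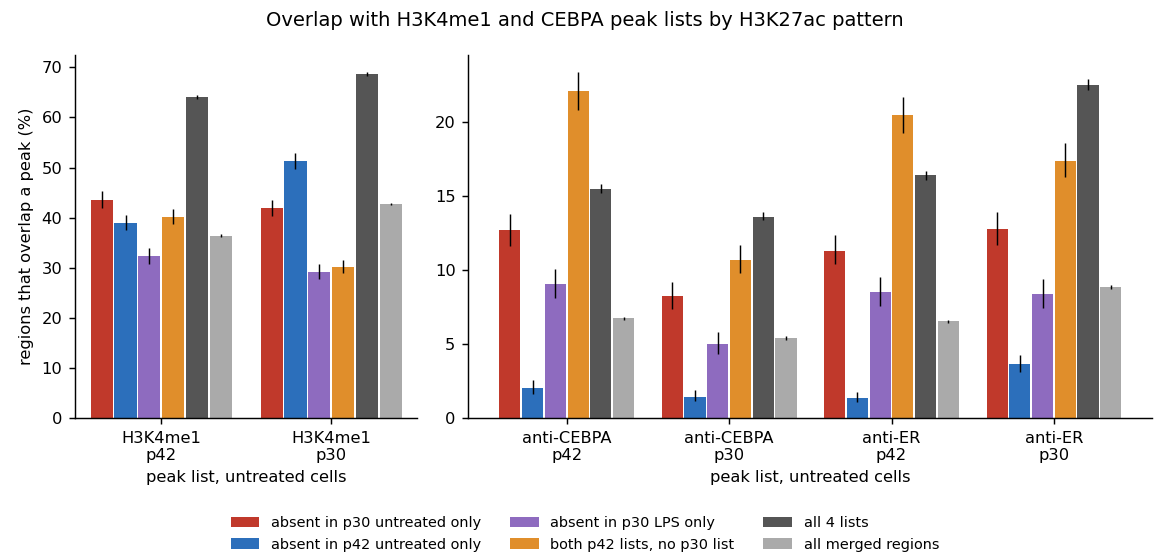
Percentage of regions that overlapped a peak of the H3K4me1 lists (left) and of the anti-CEBPA and anti-ER lists (right), untreated cells, by H3K27ac pattern. Bars are shares and lines Wilson 95% intervals over regions. The members (absent in p30 untreated only, red) had 12.7% anti-CEBPA sites in p42-expressing cells and the mirror regions (absent in p42 untreated only, blue) 2.05%.

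With the lists as deposited, the order of the lines depended on the antibody. The anti-CEBPA list was longer in p42-expressing cells and the anti-ER list in p30-expressing cells. With the same number of best sites from both lines, 9.68% (8.76 to 10.7) of the members held an anti-CEBPA site of p42-expressing cells and 8.23% (7.38 to 9.17) one of p30-expressing cells. The anti-ER shares were then 11.3% (10.4 to 12.4) and 9.87% (8.95 to 10.9). Over all merged regions the shares at this setting were 4.99% and 5.41% by anti-CEBPA and 6.54% and 6.55% by anti-ER. At this setting the p42 share of the members was the higher one for both antibodies, which was not so over all merged regions. The shares of the lines come from the same members, so their separate intervals do not measure the difference between them, which was not tested. Of the 463 members with a p42 anti-CEBPA site 59.2% also had a p30 site, and of the 301 with a p30 site 91.0% also had a p42 site. Over all merged regions 8050 had both, out of 12348 with a p42 site and 9904 with a p30 site. The anti-ER lists, of which the p30 list is the longer, gave the reverse order, with 82.2% of the p42-bound members also bound in p30- and 73.0% of the p30-bound also in p42-expressing cells.

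At the 274 members with anti-CEBPA sites in both lines, the median fold was 12.5 in p42- and 9.30 in p30-expressing cells, while the medians of the whole lists were 7.68 and 7.59. At the 341 members with anti-ER sites in both lines, the medians were 10.3 and 10.1, and those of the whole lists were 7.20 and 6.93. The median rank percentiles were 21.5 in p42- and 34.7 in p30-expressing cells by anti-CEBPA, and 30.1 and 27.5 by anti-ER. The p42 percentile was the better one at 209 of the 274 members (76.3%) and at 159 of the 341 (46.6%). The lists of each antibody differ in length, so percentiles of the lines are not on the same scale.

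Bound members were the stronger and the more isolated ones. When the members were split into 4 equal groups by their median H3K27ac rank, a p42 anti-CEBPA site was present in 31.9% (29.0 to 35.0) of the best group and in 9.41%, 5.69% and 3.61% of the others. Among members with no p30 untreated peak within 1000 bp it was present in 19.2% (17.4 to 21.3), and among those with one in 7.57% (6.50 to 8.79). The p30 anti-CEBPA shares in these groups were 13.2% and 4.36%. Of the 623 members with a site in any list 67.9% had no p30 untreated peak within 1000 bp, against 38.6% of the other members. H3K4me1 was also more frequent in the bound members, 63.1% in p42- and 53.0% in p30-expressing cells, than in the unbound ones, 39.7% in both lines. Bound members were wider as well, 721 against 503 bp in the median, which raises the chance of an overlap.

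**Figure D3:**
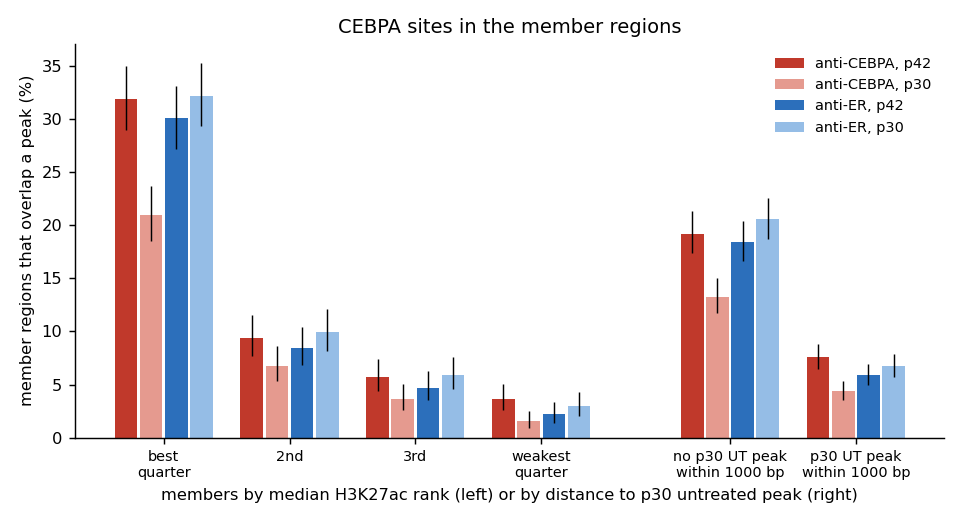
Percentage of member regions with a CEBPA site, by 4 equal groups of their median H3K27ac rank (left) and by the presence of a p30 untreated (UT) H3K27ac peak within 1000 bp (right). Bars are shares, lines Wilson 95% intervals; the p42 anti-CEBPA share fell from 31.9% in the best group to 3.61% in the weakest.

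Among the named members, the Sod2 region had strong sites in all 4 lists, with anti-CEBPA folds of 23.9 in p42- and 11.7 in p30-expressing cells and anti-ER folds of 21.0 and 32.3. The Tpp2 region had 26.0 and 21.2 with anti-CEBPA, and the region of St3gal1, a sialyltransferase, at chr15:67352599-67354319 had 22.7 and 18. The Spatc1, Cd14 and Lpp regions had anti-CEBPA folds of 10.8, 13.3 and 13.9 in p42-expressing cells and of 7.45, 6.68 and 4.66 in p30-expressing cells. At each of these members the anti-CEBPA fold was higher in p42-expressing cells, which was not so at a member near Cxcl10 described further on. The anti-ER fold was higher in p42-expressing cells at Spatc1 (19.1 against 12.6), Lpp (38.6 against 18.5) and St3gal1 (23.0 against 21.5). It was higher in p30-expressing cells at Sod2, Cd14 (15.5 against 13.0) and Tpp2 (16.4 against 16.1).

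The members were intergenic more often, and intronic a little less often, than all merged regions. The strongest summit was intronic in 2235 (61.1%) and intergenic in 936 (25.6%), and it was in an exon outside the coding sequence in 187 (5.11%) and in a coding exon in 148 (4.05%). Over all merged regions these shares were 64.6%, 19.2%, 5.97% and 5.25%. Promoters, taken as 1000 bp upstream to 100 bp downstream of an annotated start, held 151 members (4.13%, 3.53 to 4.82), beside 4.98% of all merged regions and 10.9% of regions in all 4 lists. The CEBPA-bound members were more often intergenic (46.7%) than the unbound ones (21.3%), and were farther from the nearest start site, 15417 against 11280 bp in the median. Promoter members had a p30 untreated peak within 1000 bp more often than the rest, since only 32.5% had none, against 44.1%.

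Motifs were searched on both strands in 1000 bp around the strongest summit of the 3506 members outside promoters. AP-1 (TGANTCA) was found in 1107 of them (31.6%, 30.1 to 33.1), beside 27.6% of all such regions, and its letters reversed without complement (ACTNAGT), a control of like composition, in 26.2%, beside 25.4%. CEBP (TTGCNNAA) was found in 1340 (38.2%, 36.6 to 39.8), beside 33.6%. NF-kB was found in 359 (10.2%, 9.28 to 11.3), beside 9.55%. The members had a lower GC content than regions in all 4 lists, 44.6% against 47.1% in the median. When the latter were weighted to the GC content of the members, their shares were 30.6% for AP-1, 37.6% for CEBP and 8.94% for NF-kB, so that the AP-1 and CEBP shares of the members lay within their intervals of these values and the NF-kB share a little above.

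The NF-kB share differed between the classes. It was 10.2% in the members and 11.9% (10.9 to 12.9) in the mirror regions, both gained with LPS in 1 line. It was 8.59% (8.10 to 9.10) in regions absent only from LPS-treated p42-expressing cells, 6.94% (6.11 to 7.88) in regions absent only from LPS-treated p30-expressing cells and 7.14% (6.39 to 7.98) in regions of both p42 lists and no p30 list. Regions in all 4 lists had 11.0% (10.8 to 11.3) before weighting. In 400 bp the members had 4.88% (4.21 to 5.64), which overlapped the 4.16% (3.81 to 4.53) of regions absent only from LPS-treated p42-expressing cells. The PU.1 motif (GAGGAAGT) was found in 8.87% of the members (7.97 to 9.86), near the 9.44% of all such regions, whereas regions in all 4 lists had 13.8%, or 14.1% at the GC content of the members. The CEBP share was 32.2% in the mirror regions and 45.2% in regions of both p42 lists and no p30 list, which is the order seen for the sites themselves.

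CEBPA-bound members differed from unbound ones in their motifs. Of the 601 bound members outside promoters 55.2% (51.2 to 59.2) held a CEBP match, against 34.7% (33.0 to 36.4) of 2905 unbound ones. The composite of CEBP and AP-1 letters (TGTTGCAA) was found in 9.32% (7.25 to 11.9) and 2.62% (2.10 to 3.26), and that of CEBP and ATF4 letters (TGATGCAA) in 8.15% (6.22 to 10.6) and 2.2% (1.73 to 2.80). Both composites are close to the CEBP motif. Copies of the composite with AP-1 letters match it as well when AA follows, whereas the composite with ATF4 letters does not match it. AP-1 was found in 36.3% and 30.6%, PU.1 in 14.5% and 7.71%, and NF-kB in 11.0% and 10.1%. Within 50 bp of the summit, 42.2% of the 455 p42 anti-CEBPA sites in members had a CEBP match, against 44.5% of all 47517 sites of that list. The CEBP and ATF4 composite was found there in 5.93% (4.11 to 8.50), against 8.94% of all sites. In sites of regions in all 4 lists the composite was found in 6.15%, which lies within the interval of the members. The AP-1 motif was there in 6.37% of the sites in members, 3.59% of all sites and 5.16% of sites in regions of all 4 lists. A match is a description of the letters and not of a factor bound there.

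The members were nearest to 2661 of 21738 protein-coding genes (12.2%), or 18.5% of the 14408 genes nearest to any merged region. Of these, 2008 genes had 1 member, 653 had at least 2 and 72 had at least 4. Genes with a member had a median of 18 merged regions, against 7 for all genes with any region, so genes in large regulatory neighbourhoods were more likely to have one. Mirror regions were nearest to 2659 genes, and 864 genes (32.5% of each set) had both.

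Atp8b4, which encodes a phospholipid flippase, had the most members, 19 of its 101 merged regions, of which 6 had a CEBPA site. It had no mirror region. Within 50 kb of the gene (chr2:126162893-126342594, minus strand) the H3K27ac lists held 81 peaks in untreated and 101 in LPS-treated p42-expressing cells, against 42 in untreated and 81 in LPS-treated p30-expressing cells. The peak number of p30-expressing cells with LPS equalled that of untreated p42-expressing cells. These counts are a description, since the gene was picked for its members and the same lists chose them. A low count in untreated p30-expressing cells was favoured by that choice. The other genes with most members were Pde4d, a cAMP phosphodiesterase (10 members of 212 regions), Fut8, the core fucosyltransferase (10 of 199), Fndc3b, a membrane protein with fibronectin domains (10 of 120), and Ankrd44, a subunit of protein phosphatase 6 (9 of 127). Runx1 and Myc (7 each of 156 and 155), Zeb2 (7 of 207), the chromatin reader gene Baz2b (7 of 123) and Lcp1, the leukocyte actin-bundling protein (7 of 32), followed. The 7 members at Lcp1 had p42 untreated folds from 1.83 to 4.47 and no CEBPA site in any list.

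**Figure D4:**
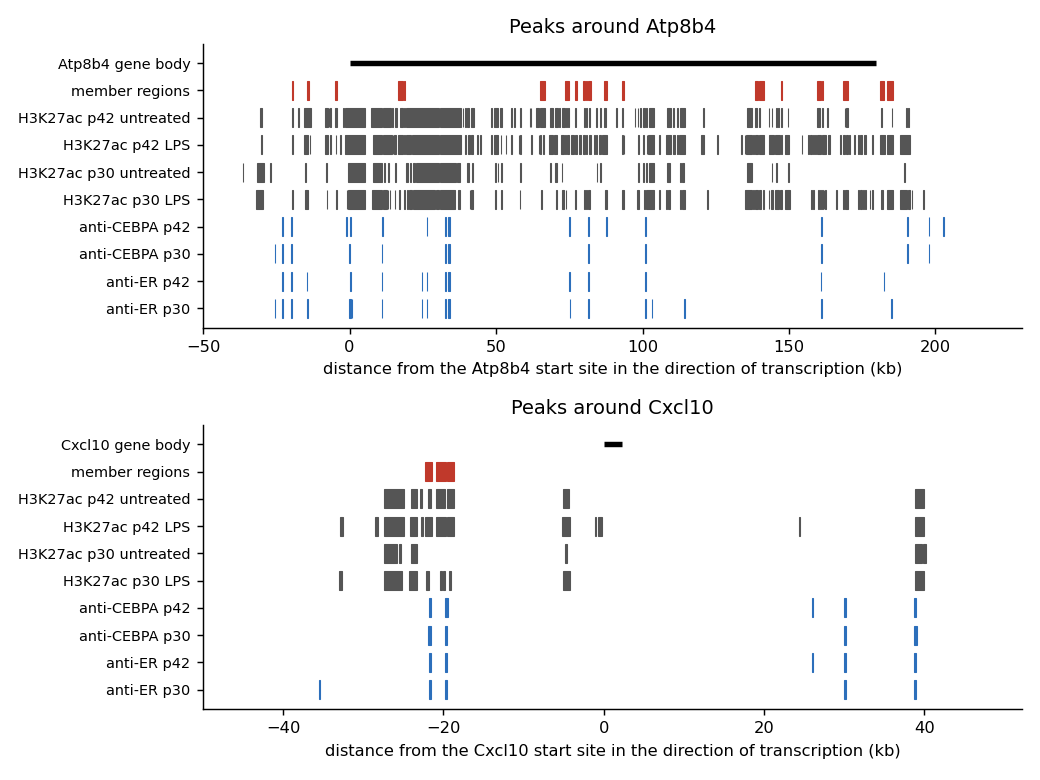
Positions of the member regions (red), H3K27ac peaks (grey) and CEBPA sites (blue) around Atp8b4 and Cxcl10, as distance from the start site in kb. Boxes are called peaks. Around Atp8b4 the lists held 42 peaks in untreated and 81 in LPS-treated p30-expressing cells, but the gene was picked for its members, which the same lists chose. The 3 members near Cxcl10 coincided with anti-CEBPA sites of both lines.

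Counts over gene lists are given as the number of genes nearest to a member and as the share that members took among all merged regions nearest to the genes, which was 2.00% over all protein-coding genes. Of the NF-kB subunits and inhibitors 7 of 17 genes had a member, and members were 17 of 394 regions (4.31%). Nfkbiz, an atypical inhibitor that steers secondary response genes, had 6, Tnfaip3 (A20), a brake on NF-kB, had 4, and Nfkbia and Tnip1 had 2 each. The intronic member of Nfkb1 at chr3:135374641-135377389 had folds of 2.77 in untreated and 11.7 in LPS-treated p42-expressing cells and of 8.58 in LPS-treated p30-expressing cells. Only the Nfkbiz members included CEBPA-bound regions, 2 of the 17.

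Of the cytokine genes 9 of 21 had a member, and members were 13 of 241 regions (5.39%). CEBPA sites were present at 6 of these 13, from 5 genes. Il12b had 2 members, both bound. Lif, of the IL-6 family, had 2 members, and the better-ranked one, 66416 bp from the start, had folds of 6.29, 7.37 and 2.95 in untreated p42-, LPS-treated p42- and LPS-treated p30-expressing cells. Il1rn, the IL-1 receptor antagonist, had a member at its start (chr2:24234761-24235673) with folds of 5.20, 7.16 and 4.25, sites in all 4 CEBPA lists and no p30 untreated peak within 21187 bp. Il1a and Il1b had 1 bound member each, and Il6, Il27, Csf1 and Osm had unbound ones. Among the chemokines 4 of 19 genes had a member, namely Ccl3, Ccl7, Ccl9 and Cxcl1, and members were 4 of 112 regions (3.57%, 1.40 to 8.82), none of them bound.

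Of the LPS receptor and Toll-like signalling genes 5 of 29 had a member, and members were 7 of 373 regions (1.88%), near the value over all genes. Tlr2, the receptor for bacterial lipopeptides, had 3. Its best-ranked member, 34059 bp upstream, had folds of 4.60, 7.53 and 2.13 in the same order and a CEBPA site in 3 of the 4 lists. Cd14 had the member described above, which was 1 of only 2 merged regions nearest to that gene. Tlr1 and Tlr6, which are neighbours and partner with Tlr2, had promoter members with folds between 2.48 and 3.91.

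Of the transcription factor lists, 11 of 16 myeloid fate factors had a member, but these genes are nearest to many regions, and members were 19 of 732 (2.60%). They included Zeb2, Nfil3, Ets2, Spi1 (PU.1), Irf8, Gfi1, Bcl6 and Runx3. The Spi1 member, 1909 bp upstream, had folds of 3.91, 3.18 and 3.43 and lay 200 bp from a p30 untreated peak. Of the AP-1 family 5 of 20 had a member (9 of 384 regions, 2.34%), namely Fosl2, Maf, Atf7, Atf1 and Mafk. The CEBPA-bound member of Maf, 431623 bp from its start, had folds of 12.0, 12.7 and 3.32. Of the C/EBP family and Tribbles genes Cebpb had 6 members, none bound, and Trib1 had 1, and the list as a whole had 7 of 214 regions (3.27%). Stem and progenitor factors had 11 of 422 (2.61%), at Runx1, Erg and Hhex.

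Adhesion and migration genes had members at 7 of 17 genes, 14 of 287 regions (4.88%), with 5 at Cd44, the hyaluronan receptor, and 3 at Ccr1. The member 12430 bp from the start of Fpr1, the formyl peptide receptor of phagocytes, had folds of 5.80, 11.4 and 2.56, a CEBPA site in 3 lists and no p30 untreated peak within 30989 bp. Among growth factor and cytokine receptors 4 of 22 had a member (5 of 460 regions, 1.09%). The best-ranked of the 2 at Csf1r, the M-CSF receptor, on chromosome 18, had folds of 6.01, 12.9 and 4.37 and sites in all 4 CEBPA lists, with H3K4me1 in p42- but not in p30-expressing cells. Immediate early genes and MAPK phosphatases had 16 of 562 (2.85%), 7 of them at Myc.

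The remaining lists ranged from 0.962% to 3.85%. Members were 8 of 381 regions (2.10%) at interferon-stimulated genes, among them Socs1 and Socs3 with 1 each, and none had a CEBPA site. They were 5 of 215 (2.33%) at stress and growth arrest genes, 1 of 104 (0.962%) at neutrophil granule and effector genes and 9 of 234 (3.85%) at DNA replication and E2F targets, where none was bound. Over all 15 lists 83 of 290 genes had a member, and members were 145 of 5105 regions (2.84%, 2.42 to 3.33). The lists differ in how many regions their genes are nearest to, and nearest does not mean regulated.

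**Figure D5:**
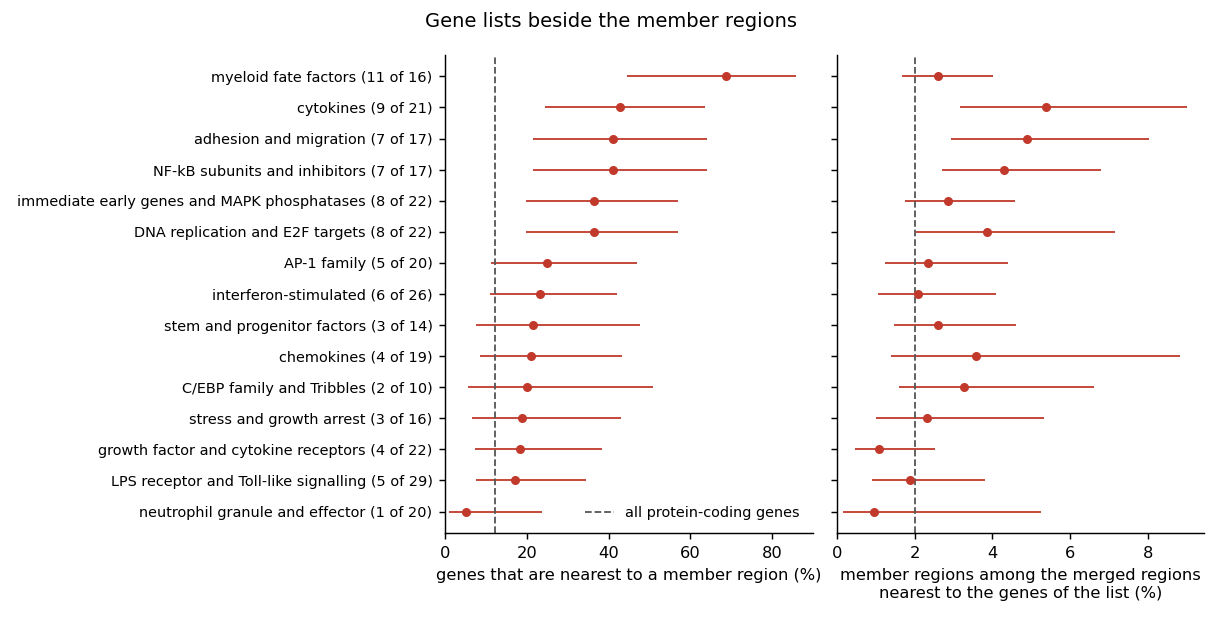
Share of genes of each list that are nearest to a member (left) and share of members among the merged regions nearest to these genes (right). Points are shares, lines Wilson 95% intervals and dashed lines the values over all protein-coding genes, 12.2% and 2.00%; cytokine genes had 5.39% on the right and neutrophil granule and effector genes 0.962%.

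Members were also counted in 4 loci of interest, taken with 50 kb on each side, beside the 2.00% that they made of all merged regions. The Fos locus (chr12:85520658-85524047) had none among 21 merged regions, of which 11 were in all 4 lists. Near Cxcl10, an interferon-inducible chemokine (chr5:92494497-92496748), 3 of 13 regions were members. All 3 lay upstream of Cxcl10 in or at the start of Art3, their nearest gene, with H3K4me1 and anti-CEBPA sites in both lines, and the first 2 shared 1 anti-CEBPA site. Their folds rose from 7.41, 4.87 and 3.91 in untreated to 15.8, 11.2 and 6.45 in LPS-treated p42-expressing cells, and were 2.52, 3.43 and 2.60 with LPS in p30-expressing cells. The third, at a start of Art3, had the higher anti-CEBPA fold in p30-expressing cells, 27 against 25.2 in p42-expressing cells.

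The Cebpb locus (chr2:167530835-167532338) had 4 members of 27 regions, all downstream of the gene, which encodes a C/EBP factor of the inflammatory response. All 4 had H3K4me1 in both lines and none had a CEBPA site, and their folds in untreated p42-expressing cells were between 2.52 and 4.08. The Gadd45a locus (chr6:67012070-67014441), a growth arrest gene, had 4 members of 34 regions. One was at the promoter, 204 bp from a p30 untreated peak, with folds of 4.64, 5.53 and 3.69. Another, 22003 bp upstream, had sites in all 4 CEBPA lists, with anti-CEBPA folds of 18.2 in p42- and 8.50 in p30-expressing cells, although its H3K27ac folds were only 2.27, 4.18 and 2.48.

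By chromosome the members were spread much like the merged regions at large, with 8.78% on chromosome 2 and 7.44% on chromosome 1, beside 8.01% and 8.61% of all regions. Chromosome 17 held 4.32% of the members and 5.61% of all regions, whereas 13.2% of the mirror regions were on chromosome 1 and 9.16% on chromosome 17. The part of copy number in this was not tested.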

How the data were processed

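ChIP-seq peak lists of 10 mouse groups were analysed, and the human ATF4 list was not used. Groups were taken from the sample labels. Per the labels and the methods of the study, the authors trimmed reads with Trim Galore 0.6.6, aligned them with Bowtie2 to mm39, excluded duplicates marked by Picard, and called narrow peaks with MACS2 against input, on pooled samples for H3K27ac and H3K4me1 and on 1 library for the others. The names of the anti-CEBPA lists do not mention the calling without a model that all other names do. Each deposited list gives a fold enrichment (a ratio to local background), the −log10 of the q-value and the summit for every peak with q under about 0.05. The authors' values were used to describe and rank peaks within their own list. Fold values, and rank percentiles of the H3K27ac, anti-CEBPA and anti-ER lists, were also set beside each other between lists, without adjustment for read depth.

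The 4 H3K27ac lists were merged by 1 bp overlap. The members and the gene lists were chosen with earlier results of these data known. The strongest summit of a region, by rank within its list, was placed with GENCODE annotation of GRCm39 and assigned to the nearest protein-coding start, and 13 motifs were counted around it. All-list regions were weighted to the members' GC content in bins of 2%. Named were the 5 best-ranked members outside and the 5 within promoters (1 of which is not reported here), those whose sequences are shown (none from chromosome 18), the 10 genes nearest to most members, genes of the 15 lists nearest to a member, and 4 loci. Shares carry Wilson intervals and differences Newcombe intervals. Alternatives were stricter q-values, lists of equal length, a margin of absence, coverage of at least 50%, and other windows and promoter definitions; the window of 500 bp was chosen after seeing the data. The steps were tested on simulated lists. Scripts ran in Python 3.11.15 (pandas 2.3.3, NumPy 2.4.6, statsmodels 0.14.6, SciPy 1.17.1, matplotlib 3.10.9).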

Additional observations from a re-analysis of the deposited data

How the results depend on the processing

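The identity of the members depended on list length. With the best 107141 peaks of each H3K27ac list, 3756 regions fitted the rule, and 2139 of them (56.9%) overlapped members, which was 58.5% of the members. In that set 50.9% had a p30 untreated peak within 1000 bp, 46.8% and 45.7% had H3K4me1 in p42- and p30-expressing cells, and 36.6% outside promoters had a CEBP motif. With q under 1e-05 in the 3 lists 717 members were left, and 47.0% of them had a p30 untreated peak within 1000 bp. Of these, 53.1% and 49.9% had H3K4me1 in p42- and p30-expressing cells, 24.0% and 17.3% anti-CEBPA sites and 23.0% and 26.8% anti-ER sites, 9.34% were at promoters, and 43.1% had a CEBP and 13.2% an NF-kB motif. With no p30 untreated peak within 1000 bp 1595 members were left. Of these, 39.0% had H3K4me1 in p30-expressing cells, 19.2% and 13.2% anti-CEBPA sites and 18.4% and 20.6% anti-ER sites, 3.07% were at promoters, and 35.3% had an AP-1 and 40.8% a CEBP motif. With equal numbers of peaks from both lines, 36.2% had H3K4me1 in p30-, 9.68% an anti-CEBPA site in p42- and 9.87% an anti-ER site in p30-expressing cells. In the window of 500 bp, chosen after seeing the data, the H3K4me1 shares were 41.6% and 39.9%. In motif windows of 400 bp the shares were 13.9% for AP-1, 16.7% for CEBP and 4.88% for NF-kB. Promoters within 2500 bp held 15.2%, and 83.6% had a p30 untreated peak within 5000 bp. The other 19 values stayed within the interval of the reported share or within 1.5 times the reported count. The anti-CEBPA and anti-ER shares of the mirror regions under the same 3 rules were between 1.33% and 9.39%, below those of the members in each case. No paired analysis was possible because the lists were called on pooled samples or single libraries and carry no replicate numbers, and for the same reason no replicate could be left out. Read depth moves the number of weak peaks called. The study states only a range for its samples, so the depth behind each list is unknown, and how much of the pattern it accounts for was not tested.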
